A study of Homo sapiens with 11 samples.

Results

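Duplicate arrays of the same 2 treatments, untreated control cells and cells given E2-BSA, were compared with each other. Of the 11 arrays of the series, 4 enter the comparison: the first arrays of the control and of E2-BSA, set against the second arrays of the control and of E2-BSA. They were chosen on a measured value. The poly-A spike-in probe sets, which read bacterial transcripts mixed into each sample ahead of labelling, had a mean of 1.62 in the first control and 1.40 in the first E2-BSA array, against -0.50 in the second control and -0.35 in the second E2-BSA array (over 24 probe sets, log2). That gap of 2.12 in the control pair and 1.75 in the E2-BSA pair selected the arrays and is given as a description. Every difference below is the first array minus the second array of the same treatment, no test was made on it, and the labels do not say whether the duplicates are separate cultures.

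All 4 arrays hold RNA of MDA-MB-231, an established human line of triple-negative breast cancer cells, which are mesenchymal in appearance and are known to lack estrogen receptor alpha. Every group spent 4 h in charcoal-stripped serum, from which steroid hormones are depleted, and then 3 h with or without its treatment. The control arrays, first and second, come from cells with no addition. The E2-BSA arrays, first and second, come from cells given 1 uM of E2-BSA, estradiol linked to the carrier protein albumin, which is meant to keep the hormone outside the cell and so at surface receptors. The other 7 arrays, 1 per treatment, are used only to see where they fall: estradiol at 1 uM, ethanol as the vehicle at 0.1%, the receptor antagonists ICI and G15 at 10 uM each, E2-BSA with either antagonist, and BSA alone at 1 uM. The platform was the Affymetrix HG-U133 Plus 2.0 array, on which most genes are read by 1 or several sets of short probes. The deposited values are relative to the centre of each probe set, so they show differences between arrays and not the level of a gene. For the same reason the identity of the line could not be checked from levels. Across its 8 mesenchymal markers, vimentin (VIM) and CD44 among them, the median difference was 0.22, against 0.07 for all genes. Of these markers 0 passed the threshold given below, against 2.19% higher and 1.22% lower of all genes.

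Several cell states leave well known traces in RNA. NF-kB, released by cytokine receptors and by stress, turns on chemokine and cytokine genes such as CXCL8 and IL6, whose products are secreted in quantity by aggressive breast cancer lines. Interferons act through STAT and IRF factors on a separate set of antiviral and antigen presentation genes, hypoxia-inducible factors act on genes of glucose uptake and angiogenesis when oxygen is low, and ATF4 acts on amino acid genes when translation is inhibited under stress. Genes of DNA replication and mitosis follow the share of cells in cycle.

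The first and second arrays also differed in spread. The spread of all probe sets was 0.47 and 0.46 in the first control and E2-BSA arrays, against 0.25 and 0.24 in the second (SD, log2). It was 0.47 in the estradiol array and between 0.26 and 0.32 in the other 6. Since each probe set is centred on its own middle, arrays unlike the majority have a larger spread. The spread therefore does not tell how many genes differ. The hybridisation controls, which are added after labelling, lay at -0.02 and 0.21 in the first control and E2-BSA arrays and at -0.28 and -0.14 in the second. The 3' minus 5' value of GAPDH, a sign of RNA integrity, was -0.07 and -0.07 in the first control and E2-BSA arrays and -0.11 and -0.02 in the second. For ACTB it was -0.31 and -0.15 in the first control and E2-BSA arrays and -0.15 and 0.06 in the second, lower in the first array of both pairs, and -0.28 in the estradiol array. The part of spike-in amount, labelling or RNA quality in the gene differences was not tested.

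A gene was counted as past the threshold when the average of its probe sets differed by more than 1 on the log2 scale, which is 2-fold, the same way in both pairs. Of 19775 genes, 434 were higher (2.19%) and 242 were lower (1.22%) in the first arrays, so 64.2% of those past the threshold were higher. With quantile normalization that share was 76.9%, with array medians subtracted 58.4%, and without probe sets that may read several transcripts 55.3%. No gene passed the threshold in opposite directions in the pairs. Across all genes the control pair and the E2-BSA pair had the same sign in 75.1%, with a median difference of 0.07 and a median SD over the 2 pairs of 0.12. By contrast, E2-BSA minus control passed the threshold in both array numbers in 0 genes higher and 0 genes lower (0% each of 19775). Taken singly, that treatment difference exceeded 1 in 101 genes among the first arrays and in 0 genes among the second.

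**Figure D1:**
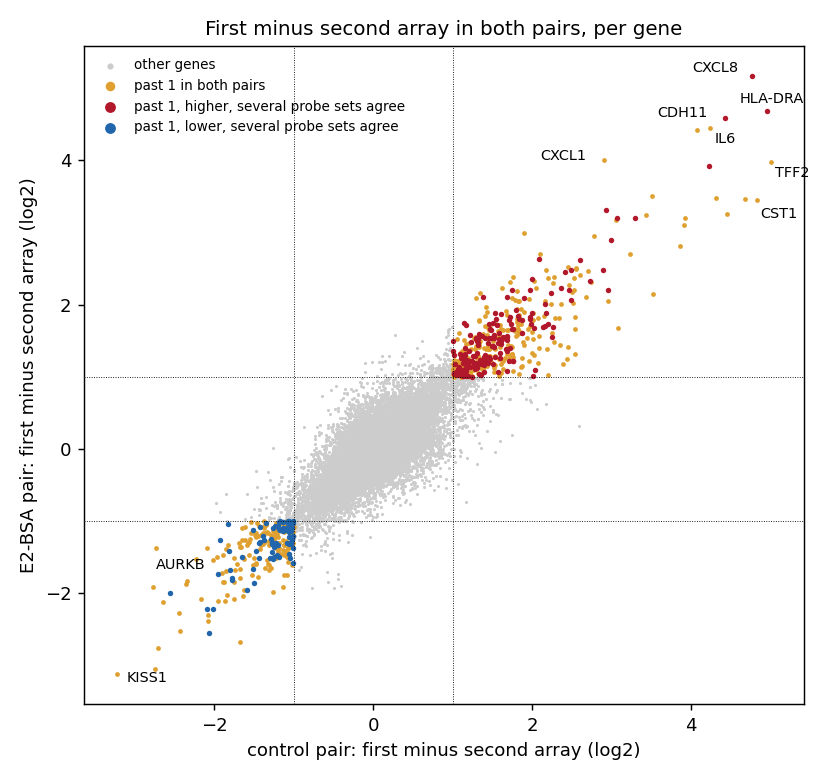
Difference between first and second array in the control pair (x axis) and in the E2-BSA pair (y axis), log2, 1 point per gene for 19775 genes, with dotted lines at 1 and -1. The 170 agreeing genes that were higher (red) and the 77 that were lower (blue) lie in the upper right and lower left corners, with CXCL8 at 4.77 and 5.17 and HLA-DRA at 4.96 and 4.68, and KISS1, read by 1 probe set, at -3.23 and -3.13.

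The following account rests on genes for which several probe sets agreed, meaning that at least 2 of them each differed by more than 0.5 that way in both pairs and that every probe set of the gene had that sign in the mean of the pairs. This held for 170 genes that were higher (1.62% of the 10523 genes with several probe sets) and 77 that were lower (0.732%). Another 36 higher and 34 lower genes had several probe sets that did not agree, and 228 higher and 131 lower genes were read by a single probe set. Of the 247 agreeing genes 38 belonged to any of the lists of cell states or markers used here, and 209 did not. The share of all genes in these lists was not counted, so this does not tell whether list members were frequent or rare. At the edge of the threshold lay PLPP1 (1.12 as the mean of the pairs) and IGFBP7 (1.25) just inside, and EHD3 (1.08 and 0.99 in the control and E2-BSA pairs) and ULBP2 (1.33 and 0.99) just outside. Among lower genes ENTR1 and EEF1D lay just inside and MYO19 and HGS just outside.

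The genes that led the higher side coded for a chemokine, antigen presentation molecules and an adhesion molecule. CXCL8, the neutrophil chemokine interleukin 8, was at 2.10 and 2.79 in the first control and E2-BSA arrays, against -2.67 and -2.38 in the second control and E2-BSA arrays. It was higher by 4.97 ± 0.28 (SD over the 2 pairs), which is 31.3-fold, and its 2 probe sets differed by 3.75 and 6.19. HLA-DRA, the alpha chain of the MHC class II molecule HLA-DR, was at 4.35 and 4.05 in the first arrays and at -0.61 and -0.62 in the second, a difference of 4.82 ± 0.20 or 28.2-fold. These leading genes were named for the size of the gap, so the distance between first and second arrays follows from that choice. E2-BSA minus control was 0.69 and 0.29 in the first and second arrays for CXCL8, and -0.30 and -0.01 for HLA-DRA. CDH11, a cadherin of mesenchymal cells, was at 4.22 and 4.31 in the first control and E2-BSA arrays and at -0.21 and -0.27 in the second. Its 4 probe sets differed by 2.46, 3.67, 5.16 and 6.72. After these came HLA-DPA1, CYP1B1 (an estrogen-hydroxylating cytochrome), TNFSF10 (the death ligand TRAIL), PTGS2, AGR2 (a disulphide isomerase of secretory epithelium), RAB27B (a GTPase of vesicle secretion), CTH, VEGFA and KLF4. Their mean differences ran from 2.44 for KLF4 to 4.07 for HLA-DPA1.

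The lower side was shallower and its leading genes shared no single role. Past 2 in both pairs were 60 genes that were higher and 12 that were lower, and past 3 were 18 and 1. SNCAIP, which codes for a partner of alpha-synuclein, was at -1.63 and -1.61 in the first control and E2-BSA arrays and at 0.45 and 0.61 in the second, a difference of -2.15 ± 0.09 (SD over the 2 pairs). The other leading agreeing genes were ZNF114 (-2.31), SRGAP2 (-2.12), PLCB4 (-2.28), AURKB (-1.78), MACROD1 (-1.80), TRAPPC10 (-1.84), MRPL52 (-1.75), AP1M2 (-1.77), KANSL1 (-1.59), GUSBP14 (-1.58) and ZNF785 (-1.68), as mean differences. Among genes read by 1 probe set, KISS1, the metastasis suppressor kisspeptin, was at -3.17 and -3.14 in the first control and E2-BSA arrays and at 0.06 and -0.02 in the second, the one gene lower by more than 3 in both pairs. Protein-coding genes made up 97.2% of the higher genes and 83.1% of the lower ones, against 83.5% of all genes. Transcribed pseudogenes made up 0.23% of the higher and 5.37% of the lower genes, against 2.14% of all. SRGAP2, GUSBP14 and KANSL1 belong to duplicated stretches of the genome, so their probes may read near-identical copies.

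Inflammatory ligands had the highest median of the 27 lists. Of 21 measured cytokine and chemokine genes, 11 were past the threshold and higher and 0 were lower, against 2.19% and 1.22% of all genes, and the median member was at 1.18 (1.11 in the control and 1.24 in the E2-BSA pair), against 0.07 for all genes. Several probe sets agreed in 5 of the 11: CXCL8, TNFSF10, CXCL2 (1.64 ± 0.11), CSF1 (1.40 ± 0.18), the growth factor of macrophages, and IL1B (1.18 ± 0.22). IL6, read by 1 probe set, was at 2.49 and 3.00 in the first control and E2-BSA arrays and at -1.74 and -1.44 in the second, or 20.2-fold higher. CXCL1 was at 0.82 and 2.71 in the first arrays and at -2.08 and -1.30 in the second, and CXCL3 at 0.50 and 1.75 in the first and at -1.39 and -1.25 in the second. In both of these neutrophil chemokines the E2-BSA array was the higher of the first arrays, and the SD over the pairs was 0.78 in each. Not every ligand took part. TNF was at -0.22 and 0.41 in the control and E2-BSA pairs, CXCL5 at 0.22 and 0.21, and IL11 at -1.41 and -0.75. CXCL1, CXCL2 and CXCL3 are near-identical copies, so their probes may read one another.

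The promoters of these ligands were searched for a motif, which only a part of them held. An NF-kB motif of the letters GGANNTTCC, sought on both strands from 250 bases before to 50 bases after each gene start, occurred in 8 of the 16 ligand promoters found in the RefSeq table, against 4.59% of all 27305 promoters. Of the 10 ligands past the threshold that had a promoter, 5 held it, and IL1B, IL24, CCL20, TNFSF10 and TNFSF15 did not. Among all agreeing genes it occurred in 7 of 129 higher (5.43%) and 1 of 58 lower promoters (1.72%). The motif occurred in 6 of 14 promoters of NF-kB subunits and feedback inhibitors and in 5 of 17 of inflammatory effectors. Of their higher members with a promoter 2 of 2 and 3 of 8 held it, and PTGS2, PTGES and IL1RAP had 0 matches. Below are stretches of 60 bases around the match in the 5 ligand promoters that held it and in 3 genes picked among those with a match. These are ICAM1, and NFKB1 and TNFAIP3, which encode an NF-kB subunit and its feedback inhibitor. They are RefSeq sequences on GRCh38.p14, written along the gene's strand, with the match in capitals. CXCL1, CXCL2, CXCL3, CXCL8 and NFKB1 hold the same letters there. A match is a description of the letters and no site of binding was measured.
CXCL8 (chr4:73740453-73740512, plus strand, match 91 bases before the start): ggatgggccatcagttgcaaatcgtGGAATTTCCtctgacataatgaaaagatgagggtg
IL6 (chr7:22727103-22727162, plus strand, 72 bases before): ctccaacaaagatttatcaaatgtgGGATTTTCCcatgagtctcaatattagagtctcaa
CXCL1 (chr4:73869290-73869349, plus strand, 78 bases before): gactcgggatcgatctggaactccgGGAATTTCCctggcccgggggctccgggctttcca
CXCL2 (chr4:74099238-74099297, minus strand, 77 bases before): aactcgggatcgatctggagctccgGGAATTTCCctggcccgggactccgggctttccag
CXCL3 (chr4:74038733-74038792, minus strand, 78 bases before): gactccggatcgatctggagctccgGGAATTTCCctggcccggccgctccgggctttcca
ICAM1 (chr19:10270909-10270968, plus strand, 186 bases before): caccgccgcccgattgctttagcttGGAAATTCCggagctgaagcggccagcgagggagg
NFKB1 (chr4:102501286-102501345, plus strand, 48 bases before): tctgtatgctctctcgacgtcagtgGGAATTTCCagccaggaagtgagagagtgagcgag
TNFAIP3 (chr6:137867167-137867226, plus strand, 67 bases before): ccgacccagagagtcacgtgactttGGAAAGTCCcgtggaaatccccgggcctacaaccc

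Receptors, regulators and effectors of the same pathway differed less evenly. Among 16 NF-kB subunits and feedback inhibitors the median was 0.36, with 3 higher and 0 lower, against 2.19% and 1.22% of all genes. The 3 were RELB (1.53), NFKB1 (1.16) and TNFAIP3, the ubiquitin-editing inhibitor A20, which was at 0.33 and 1.11 in the first control and E2-BSA arrays and at -0.90 and -0.37 in the second. Of 21 effector genes 9 were higher and 1 was lower against the same shares, and the median was 0.81. ICAM1, the leukocyte adhesion molecule, was at 2.03 and 1.32 in the first control and E2-BSA arrays and at -0.93 and -0.87 in the second. PTGS2, the inducible cyclooxygenase, was at 2.30 and 2.76 in the first and at -0.63 and -0.55 in the second, and PTGES, which turns its product into prostaglandin E2, was higher by 1.32 ± 0.36. IL1RAP (2.09 ± 0.16), a subunit of the interleukin 1 receptor, agreed as well. One gene went against the list. SOD2, the mitochondrial superoxide dismutase and a common NF-kB target, was at -0.58 and -1.40 in the first arrays, with differences of -1.64 and -2.04 in the control and E2-BSA pairs, from 1 probe set.

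**Figure D2:**
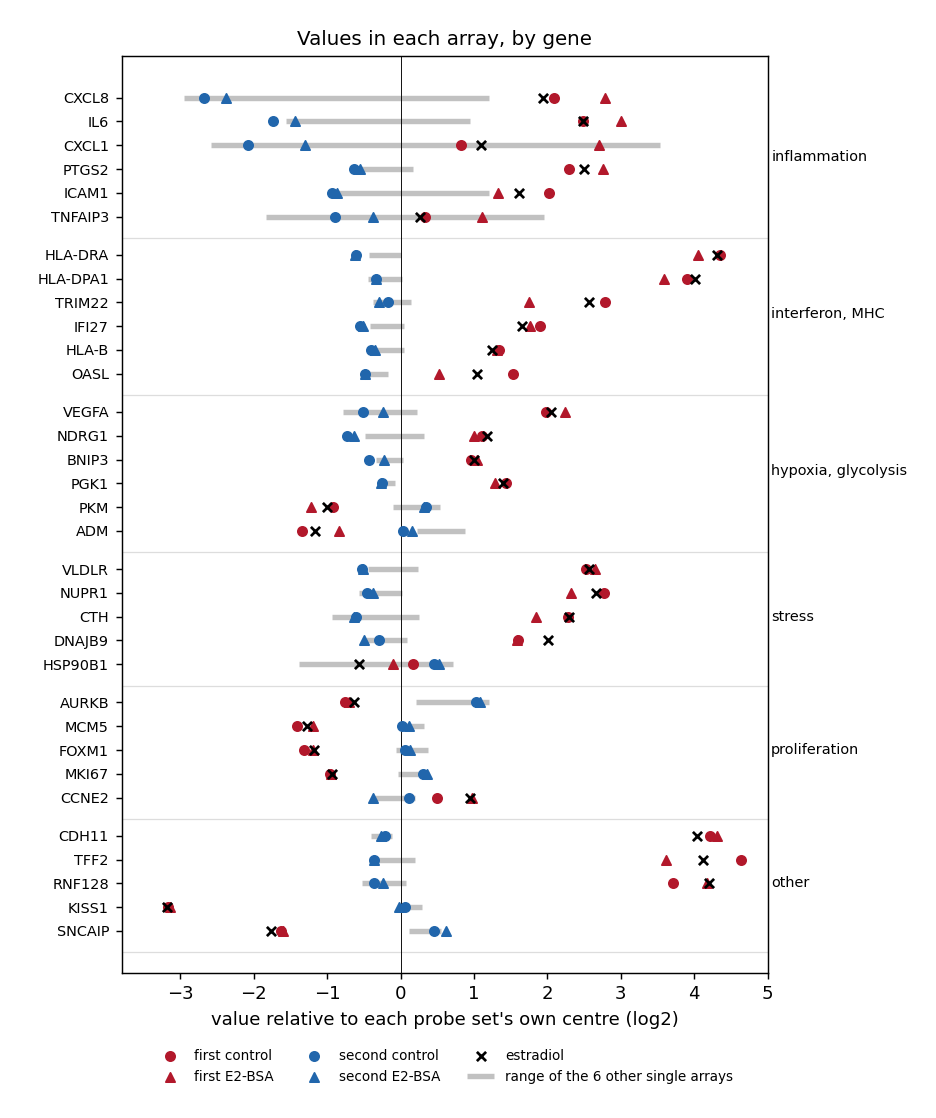
Values of named genes in each array, relative to the centre of each probe set (x axis, log2), grouped by state. Many of these genes were chosen for a gap between first and second arrays. The first arrays (red) and the estradiol array (cross) lie apart from the second arrays (blue) in most genes, as in HLA-DRA with 4.35, 4.05 and 4.31 against -0.61 and -0.62, while the grey range of the 6 other single arrays reaches 3.54 for CXCL1 and 1.96 for TNFAIP3.

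Interferon-stimulated genes were higher as a list, mostly by less than the threshold. The median of 38 measured genes was 0.73, and 4 passed the threshold with 0 lower, against 2.19% and 1.22% of all genes. In both pairs 34 were above 0, where 75.1% of all genes had the same sign, either way, in both. In 37 of the 38 the signed difference of the control pair was above that of the E2-BSA pair, with list medians of 0.90 and 0.54, and over all genes this held in 54.7%. OASL, a relative of the antiviral oligoadenylate synthetases, was the one member with several agreeing probe sets. It was at 1.53 and 0.52 in the first control and E2-BSA arrays and at -0.48 and -0.49 in the second. TRIM22 (2.50 ± 0.64), an antiviral ubiquitin ligase, IFI27 (2.37 ± 0.13) and DDX60 (1.66 ± 0.47), a helicase of the RNA sensing pathway, were past the threshold with 1 probe set each. The common marker ISG15 was at 0.73 and -0.17 in the control and E2-BSA pairs, and IRF7 was at -0.33 and -1.14.

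Antigen presentation genes differed more strongly and in both classes. Of 17 measured genes of MHC class I presentation and interferon gamma response, 6 were higher and 0 lower, against 2.19% and 1.22% of all genes, and the median was 0.97 (0.95 in the control and 0.84 in the E2-BSA pair). The guanylate binding proteins GBP2 (2.28 ± 0.31) and GBP1 (1.83 ± 0.07), the factor IRF1 (1.74 ± 0.19) and the class I heavy chains HLA-B (1.71 ± 0.06) and HLA-C (1.28 ± 0.00) agreed. HLA-B was at 1.34 and 1.32 in the first control and E2-BSA arrays and at -0.41 and -0.34 in the second. Of 15 MHC class II genes, a family added after its leading members were seen, 7 were higher (2.19% of all genes), and 2 of these agreed, HLA-DRA and HLA-DPA1. CIITA, the master regulator of class II transcription, was at 0.26 and 0.10 in the control and E2-BSA pairs, and CD74, the invariant chain, at 0.44 and 0.27. Some HLA genes, such as the class I heavy chains and the DRB genes, are closely alike in sequence, and their probes may read one another.

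Class II molecules are also carried by macrophages and B cells, so the markers of other cells are given beside them. Of all genes 2.19% were higher and 1.22% lower, so lists this short may hold 0 such members by their size. Of 7 measured macrophage markers 0 passed the threshold, with a median of 0.35 against 0.07 for all genes. Their mean difference ranged from -0.02 to 0.75, the highest being CD14 at 1.26 and 0.24 in the control and E2-BSA pairs. Of 6 lymphocyte markers 0 passed, with a median of 0.26 and a range from -0.02 to 0.35. Fibroblast (7 markers, median 0.14), endothelial (5, median 0.32) and luminal epithelial markers (10, median 0.13) also had 0 members past the threshold. Above the median of all genes lay 6 of the 7 macrophage, 5 of the 6 lymphocyte and 6 of the 7 fibroblast markers. The same held for 5 of the 5 endothelial and 6 of the 10 luminal markers. PTPRC, the pan-leukocyte protein CD45, was at 0.51 and 0.15 in the control and E2-BSA pairs. Since the values are centred, it cannot be read from them whether a marker was at background. In RNA of whole cultures, fewer cells of a type and less RNA per cell cannot be told apart.

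An interferon response motif, AANNGAAAC on either strand, occurred in 25 of 31 promoters of the interferon-stimulated list (80.6%) and in 4 of 13 of the antigen presentation list, against 5.36% of all promoters. Among the agreeing genes it occurred in 11 of 129 higher promoters (8.53%). The stretches below show it in 2 genes past the threshold from the first list and in HLA-B, with every match in the stretch in capitals (GRCh38.p14, RefSeq).
IFI27 (chr14:94110618-94110677, plus strand): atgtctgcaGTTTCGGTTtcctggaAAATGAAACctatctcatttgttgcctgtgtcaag
DDX60 (chr4:168318769-168318828, minus strand): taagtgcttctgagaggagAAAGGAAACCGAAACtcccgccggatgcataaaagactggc
HLA-B (chr6:31357301-31357360, minus strand): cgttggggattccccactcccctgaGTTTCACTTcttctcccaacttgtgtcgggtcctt

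Genes induced by hypoxia were higher in part, and the glycolytic enzymes were not. Of 27 measured hypoxia genes 7 were higher (25.9%) and 1 was lower (3.70%), against 2.19% and 1.22% of all genes, and the median was 0.68 (0.67 in the control and 0.70 in the E2-BSA pair). VEGFA, the angiogenic growth factor, was at 1.98 and 2.23 in the first control and E2-BSA arrays and at -0.51 and -0.24 in the second, and its 4 probe sets differed by 1.99, 2.47, 2.66 and 2.82. The mitophagy receptors BNIP3 (1.33 ± 0.09) and BNIP3L (1.32 ± 0.02) and the glucose transporter SLC2A1 (1.43 ± 0.24) agreed as well, and NDRG1 (1.74 ± 0.14) and INSIG2 (1.36 ± 0.11) were past the threshold with 1 probe set each. Other members did not go the same way. ADM, the vasodilator adrenomedullin, was at -1.34 and -0.84 in the first control and E2-BSA arrays and at 0.03 and 0.16 in the second, and PFKFB3, a glycolytic regulator, differed by -0.97 and -0.63, both from 1 probe set.

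Among 17 glycolytic enzymes the median was -0.11, with 1 past the threshold on each side (5.88% each). Of all genes 2.19% were higher and 1.22% lower. PGK1 was at 1.43 and 1.28 in the first control and E2-BSA arrays and at -0.25 and -0.27 in the second, and PKM was at -0.92 and -1.22 in the first and at 0.34 and 0.32 in the second. LDHA was at 0.49 and 0.52 in the control and E2-BSA pairs and GAPDH at -0.17 and -0.20. PGK1 lies on chromosome X, whose genes are described further on. The core of the hypoxia response element, ACGTG on either strand, occurred in 12 of 22 hypoxia promoters (54.5%), against 21.6% of all promoters and 28.7% of the agreeing higher ones. BNIP3 holds a palindromic match, in capitals, upstream of its start (GRCh38.p14, RefSeq).
BNIP3 (chr10:131982024-131982083, minus strand): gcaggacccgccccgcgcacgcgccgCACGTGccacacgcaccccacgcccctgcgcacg

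**Figure D3:**
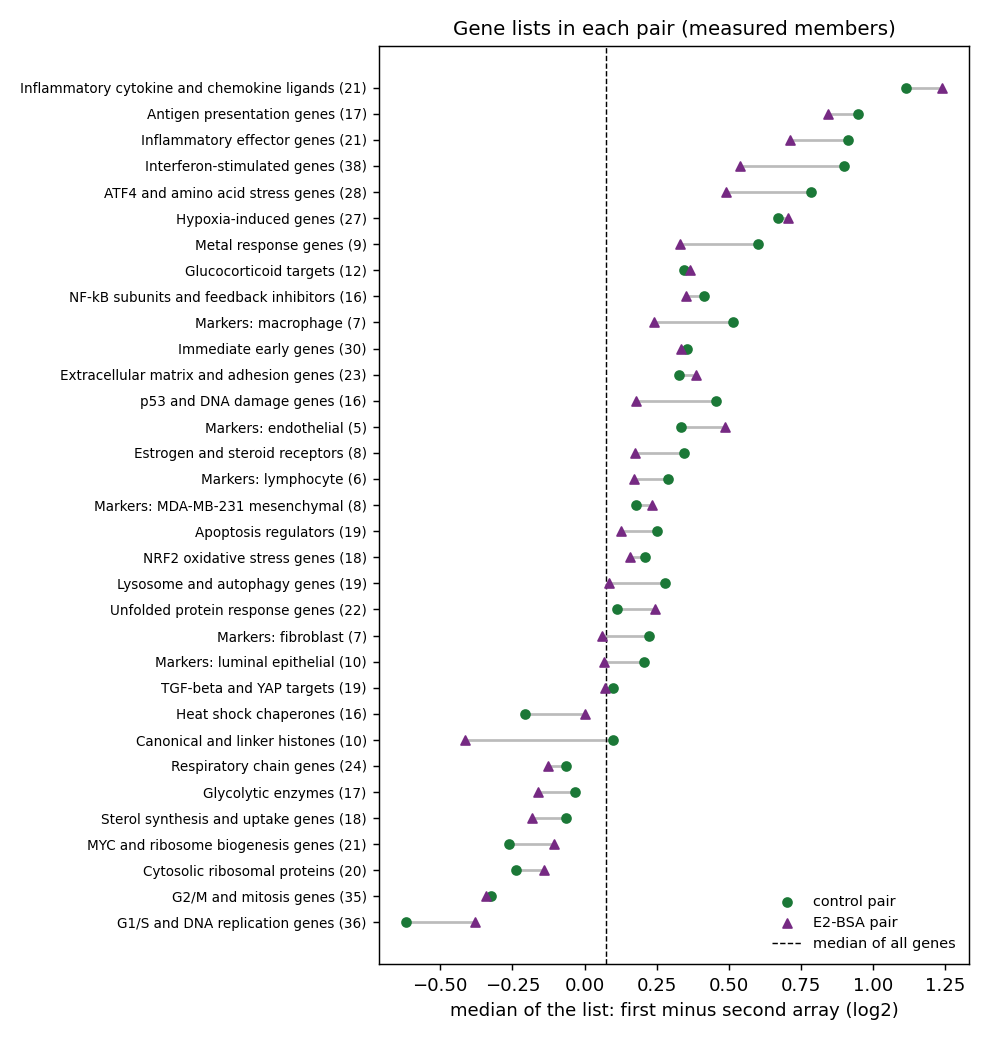
Median difference between first and second array (x axis, log2) of each gene list in the control pair (green circle) and in the E2-BSA pair (purple triangle), with the number of measured members in brackets and the median of all genes, 0.07, as a dashed line. The inflammatory ligands stand highest at 1.11 and 1.24 and the G1/S genes lowest at -0.62 and -0.38, in the control and E2-BSA pairs.

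The stress lists were not alike. Of 28 ATF4 and amino acid stress genes 6 were higher and 0 lower, against 2.19% and 1.22% of all genes, with a median of 0.69 (0.79 in the control and 0.49 in the E2-BSA pair). CTH, which makes cysteine, agreed in its 2 probe sets and was at 2.28 and 1.85 in the first control and E2-BSA arrays and at -0.61 and -0.63 in the second. VLDLR (3.11 ± 0.08), a lipoprotein receptor, NUPR1 (2.96 ± 0.37), a chromatin protein induced by stress, and DDIT4 (1.88 ± 0.56), an inhibitor of mTORC1, were read by 1 probe set each. The factors themselves differed less: ATF4 was at 0.30 and -0.03 and DDIT3 at 1.09 and 0.56 in the control and E2-BSA pairs. Without the probe sets that may read several transcripts the median of this list was 0.20. The motif sought for this list, TGATGNAA on either strand, occurred in 5 of 24 promoters (20.8%). The share was 3.67% of all promoters and 3.88% of the agreeing higher ones. Of 5 higher members with a promoter, 1 held it, CHAC1, while CTH, VLDLR, DDIT4 and PSAT1 had 0 matches.

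Of 22 unfolded protein response genes 2 were higher and 0 lower, against 2.19% and 1.22% of all genes, and the median of 0.14 lay near that of all genes. DNAJB9, a chaperone cofactor of the endoplasmic reticulum, was at 1.60 and 1.59 in the first control and E2-BSA arrays and at -0.29 and -0.50 in the second, with 3 probe sets, and EDEM1 was higher by 1.55 ± 0.13. HSPA5, the main chaperone of that compartment, was at -0.02 and 0.30 in the control and E2-BSA pairs, XBP1 at -0.58 and -0.28 and HSP90B1 at -0.29 and -0.63. Of 16 heat shock chaperones, 9 metal response genes and 16 p53 targets 0 passed the threshold in each list, with medians of -0.05, 0.49 and 0.32. AKR1C3, an aldo-keto reductase with near-identical relatives, was the one NRF2 gene of 18 past the threshold, at 3.53 and 2.14 in the control and E2-BSA pairs, while NQO1 was at 0.15 and 0.11 and HMOX1 at 0.38 and 0.15.

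Immediate early genes, which answer to growth factors and to handling within minutes to hours, had a median of 0.34 over 30 genes, with 6 higher and 0 lower, against 2.19% and 1.22% of all genes. KLF4, a zinc finger factor, was at 2.04 and 1.92 in the first control and E2-BSA arrays and at -0.37 and -0.54 in the second. NR4A2, an orphan nuclear receptor, was at 0.11 and 1.25 in the first and at -1.03 and -0.49 in the second, so that its first control array lay nearer to the second arrays than its first E2-BSA array did. FOS was at 1.29 and 2.09 and MYC at 1.31 and 1.26 in the control and E2-BSA pairs, from 1 probe set each, whereas EGR1 was at -0.12 and -0.12 and JUN at -0.62 and -0.57.

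Most proliferation genes were lower in the first arrays, and most of these by less than the threshold. Of 36 genes of G1/S and DNA replication 28 were below 0 in both pairs, 2 were past the threshold and lower (5.56%, against 1.22% of all genes) and 0 were higher, with a median of -0.50 (-0.62 in the control and -0.38 in the E2-BSA pair). In 30 of the 36 the signed difference of the control pair was below that of the E2-BSA pair, whereas over all genes it was above in 54.7%. MCM5, a subunit of the replicative helicase, was at -1.41 and -1.19 in the first control and E2-BSA arrays and at 0.02 and 0.11 in the second. MCM2, of the same complex, differed by -1.27 ± 0.03. Of 35 G2/M genes 29 were below 0 in both pairs, 5 were lower (14.3%) and 0 were higher, with a median of -0.29. In 21 of the 35 the control pair was above the E2-BSA pair, unlike in the G1/S list. Across all genes 75.1% had the same sign in both pairs, counting either sign.

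AURKB, the kinase of the chromosomal passenger complex, was at -0.76 and -0.70 in the first control and E2-BSA arrays and at 1.03 and 1.08 in the second, and its 2 probe sets differed by -0.89 and -2.68. MKI67, the proliferation antigen Ki-67, was at -0.96 and -0.94 in the first and at 0.31 and 0.36 in the second, and all 4 of its probe sets lay between -1.46 and -1.02. TOP2A (-1.07 ± 0.09) agreed too, FOXM1 (-1.35 ± 0.05), a factor that drives mitotic genes, was read by 1 probe set, and KIF23 was at -1.21 and -1.31 in the control and E2-BSA pairs. These states were not uniform either. CCNB1 was at -0.21 and -0.23, CCNA2 at 0.19 and 0.12, and RFC3 at 0.87 and 0.96 in the control and E2-BSA pairs. CDK1 differed by 0.46 as an average of 4 probe sets, of which 2 were at 1.42 and 1.44 and 2 at -0.15 and -0.87, and CCNE2 likewise averaged 0.86 from probe sets at 2.31 and -0.59. For these genes the probe sets disagree in sign.

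Growth-related lists outside the cycle lay just below the median of all genes, with ribosomal proteins at -0.19, ribosome biogenesis genes at -0.18, sterol synthesis genes at -0.14 and respiratory chain genes at -0.08. The median of 10 histone genes was 0.10 in the control pair and -0.41 in the E2-BSA pair. Glucocorticoid targets (median 0.44), apoptosis regulators (0.21) and lysosome genes (0.19) had 1 of 12, 1 of 19 and 2 of 19 members higher (2.19% of all genes) and 0 lower. Of 19 TGF-beta and YAP targets 4 were lower and 1 was higher, against 1.22% lower and 2.19% higher of all genes. The ligand TGFB1 was at -0.79 and -1.01 in the first control and E2-BSA arrays and at 0.21 and 0.21 in the second, TAGLN, an actin-binding protein, at -1.53 and -1.75 in the control and E2-BSA pairs, and ID1, an inhibitor of differentiation factors, at -1.83 and -1.34. SMAD7, the feedback inhibitor of the same pathway, was at 1.51 and 1.49. Of 23 matrix and adhesion genes, the collagen receptor subunit ITGA2 (1.55 ± 0.04) and thrombospondin THBS1 (1.28 ± 0.17) were higher and the basement membrane chain COL4A2 (-1.06 ± 0.05) was lower, with agreeing probe sets. PMAIP1, the apoptosis inducer NOXA, was higher by 1.49 ± 0.05.

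Among genes with 1 probe set past 3 in both pairs were members of 2 families of secreted proteins, picked after their values were seen. Trefoil factor TFF2, a protector of mucosa, was at 4.64 and 3.61 in the first control and E2-BSA arrays and at -0.36 and -0.36 in the second, and TFF1, known as an estrogen-induced gene in luminal cells, was at 3.71 and 2.77 in the first and at -0.15 and -0.03 in the second. TFF1 differed by 3.86 and 2.81 in the control and E2-BSA pairs, so it was past 3 in the control pair only. TFF3 was at 0.80 and 0.28 in the control and E2-BSA pairs. Among 10 type 2 cystatins, which inhibit cysteine proteases, CST1 (4.14 ± 0.97), CST2 (3.56 ± 0.52) and CST4 (3.51 ± 0.57) were past the threshold, against 2.19% higher of all genes. These 3 are near-identical copies. The other cystatins did not pass it, with mean differences from -0.07 for CST9 to 0.85 for CST3. RNF128 (4.24 ± 0.24), COXFA4L3 (4.07 ± 0.85), SDR16C5 (3.89 ± 0.59), MAL2 (3.86 ± 0.84), S100P (3.51 ± 0.01) and PLAAT4 (3.34 ± 0.13), of other families, were higher as well. Among the receptors for estrogens and other steroids, ESR1 was at 0.05 and 0.10, ESR2 at 0.09 and 0.07 and GPER1 at 0.56 and 0.35 in the control and E2-BSA pairs, and only NR3C2, the mineralocorticoid receptor, was past the threshold at 1.68 and 1.65.

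Genes of chromosome X were higher more often than those of any other chromosome. Of 696 X genes 84 were past the threshold and higher (12.1%) and 1 was lower (0.14%), whereas of 18990 autosomal genes 348 were higher (1.83%) and 238 lower (1.25%). The share of higher genes on single autosomes ran from 0.53% to 4.55%. The median X gene differed by 0.30 (0.34 in the control and 0.30 in the E2-BSA pair) and 85.2% of X genes were above 0, against a median of 0.07 and 59.4% for the autosomes. X genes made up 20.6% of the agreeing higher genes and 3.52% of all genes. SH3BGRL, a small thioredoxin-fold protein, was at 2.01 and 1.81 in the first control and E2-BSA arrays and at -0.35 and -0.42 in the second. PSMD10, a proteasome assembly factor also called gankyrin, was at 1.80 and 1.76 in the first and at -0.44 and -0.40 in the second, and the kinase gene RPS6KA3 at 1.37 and 1.46 in the first and at -0.45 and -0.38 in the second. These were the agreeing X genes furthest apart in both pairs, so the lack of overlap between first and second arrays follows from that choice. In them the arrays of each set lay within 0.20 of each other. In single arrays the median X gene minus the median autosomal gene was 0.20 and 0.20 in the first control and E2-BSA arrays and -0.09 and -0.08 in the second. The inflammatory, interferon, hypoxia and stress lists named above hold 0 X genes.

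**Figure D4:**
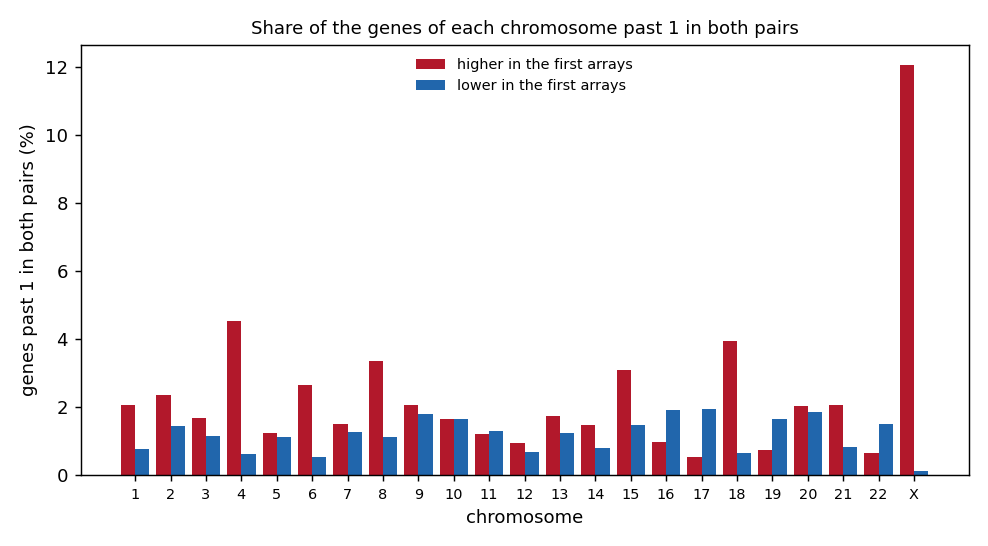
Share of the measured genes of each chromosome (y axis, percent) that were higher (red) or lower (blue) in the first arrays by more than 1 in both pairs. Chromosome X reaches 12.1% higher with 0.14% lower, and the autosomes run from 0.53% to 4.55% higher.

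The 7 arrays that the comparison did not use fell on either side. On a scale where the mean of the second arrays is 0 and that of the first arrays is 1, the estradiol array had a median place of 1.01 over the 247 agreeing genes, with 0.82 to 1.20 from the 5th to the 95th percentile. Its spike-in mean was 1.58, and it was the remaining array on the high side of the spike-in values. The arrays of ethanol, BSA, each antagonist alone and E2-BSA with either antagonist had median places between 0.03 and 0.12 and spike-in means between -0.56 and 0.10. The estradiol array lay above all of the other 6 in 166 of the 170 agreeing higher genes and below all of them in 73 of the 77 agreeing lower genes, against 24.2% and 34.5% of all genes. With 1 estradiol array no test was made, since an exact test against the other 6 could not go below a p of 0.143. The treatment with estradiol and the set of arrays cannot be told apart in it.

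**Figure D5:**
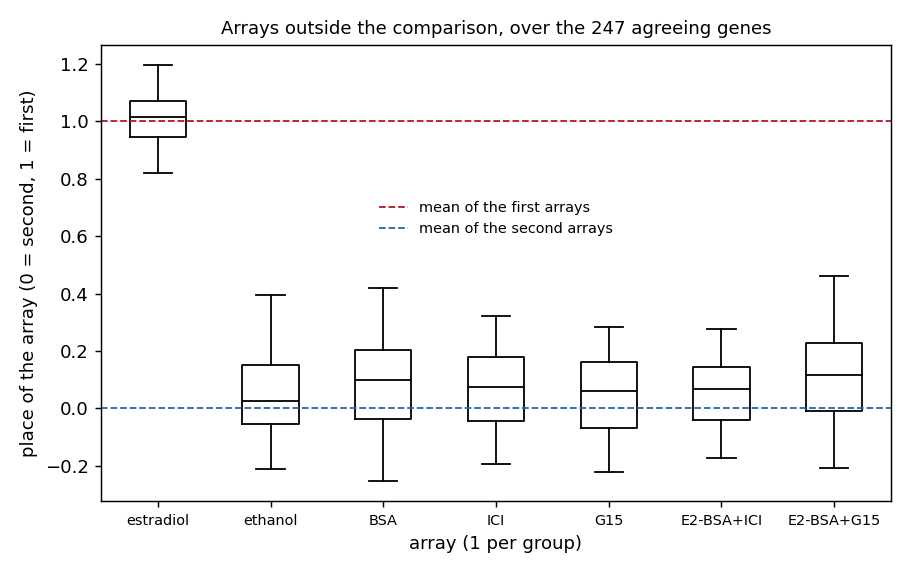
Place of each array outside the comparison (x axis) between the mean of the second arrays (0, blue line) and the mean of the first arrays (1, red line) over the 247 agreeing genes (y axis). Boxes span the quartiles with the median as a line, and whiskers the 5th to 95th percentile, from 0.82 to 1.20 for estradiol, while the other 6 arrays have medians of 0.03 to 0.12.

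Single genes and some lists departed from this order. CXCL8 was at 1.94 in the estradiol array and between -2.95 and 1.20 in the other 6, CXCL1 was at 1.10 in the estradiol array and up to 3.54 in the others, and TNFAIP3 at 0.26 and up to 1.96. These inflammatory genes thus varied among the arrays with low spike-in values, and for CXCL1 and TNFAIP3 the ranges overlapped the first arrays. Among the other genes named by rule and past the threshold, the 6 arrays also reached the first arrays in CXCL2 (highest 0.84), CXCL3 (2.39), IRF1 (0.79), DDIT4 (1.37) and NR4A2 (0.74), and in TOP2A on the lower side (lowest -0.62). Some named genes that did not pass the threshold overlapped too, such as SESN2 (highest 1.72) and PFKFB3 (lowest -1.04). Such overlap was found in 4 of the 170 agreeing higher and 3 of the 77 agreeing lower genes. Among all genes past the threshold it was found in 13 of 434 higher and 18 of 242 lower genes. These genes were chosen for a gap between the first and second arrays, and the share over all genes was not counted. As a list, the inflammatory ligands lay above the mean of the second arrays by a median of 1.16 and 1.22 in the first control and E2-BSA arrays, by 1.19 in the estradiol and 0.63 in the BSA array, and by at most 0.12 in the remaining 5. The NF-kB subunits and feedback inhibitors lay at 0.39 and 0.40 in the first arrays and 0.36 in the estradiol array. In the BSA array this list was at 0.80, in the ethanol array at 0.31, and in the others at most at 0.18. Immediate early genes were at 0.29 and 0.37 in the first arrays and 0.36 in the estradiol array. They were at 0.51 in the ethanol array and at most at 0.20 in the others. HLA-DRA, CDH11, VEGFA, PSMD10 and AURKB did not overlap in this way: HLA-DRA was at 4.31 in the estradiol array and at most at 0.01 in the other 6, and AURKB at -0.63 in the estradiol array and at least at 0.21 in the others.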

How the data were processed

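Per the labels' protocols, RNA came from column extraction and was labelled and hybridised as Affymetrix prescribes. The authors' deposited values were read as log2 values, each probe set centred on its own middle. The summary method, normalization and log base are not given in the sources used here, and base 2 was assumed. Of 54675 probe sets, 51.7% have mirrored values on either side of 0 (tolerance 1e-05), the mark of a subtracted median. Values run from -4.20 to 6.69. The number of arrays, 2 a side, limits the precision.

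The 41097 probe sets with 1 gene symbol (1801 had several) were averaged into 19775 genes, with no filter and no further normalization. Gene ids of 41043 were found in the RefSeq gene table. The differences of both pairs were described without a test, since the arrays were selected on the same contrast. The members, lists and rules were chosen with earlier results of these data known. Named genes were the 12 furthest agreeing genes on each side, up to 5 agreeing members of each list with up to 3 members read by 1 probe set and up to 2 with unequal pairs, the threshold edge and IL6. Others were taken after their values were seen. Alternatives were array-median and quantile normalization, the median of probe sets, leaving out cross-reading probe sets, unpaired arrays, other thresholds, leaving out arrays, and, added after seeing the data, leaving out chromosome X. Counting was tested on simulated data. Python 3.11.15, pandas 2.3.3, numpy 2.4.6 and matplotlib 3.10.9 were used.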

Additional observations from a re-analysis of the deposited data

How the results depend on the processing

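Of 669 values of the 87 named genes under the alternatives, 666 kept their sign. The other 3 were CCNE2 at -0.59 and CDK1 at -0.51 without probe sets that may read several transcripts (_x_at and _s_at), and MANF at -0.081 without E2-BSA replicate 1 (up to 0.25 with another array left out). A threshold of 0.5 gave 1559 higher and 1261 lower genes (430 and 310 agreeing), and 1.5 gave 157 and 46 (60 and 11 agreeing). Quantile normalization gave 109 lower genes, 32 of them agreeing, and leaving out the _x_at and _s_at probe sets left 72 and 50 agreeing genes, which also removes probe sets. Leaving out 1 of the 4 arrays gave 559 to 675 higher and 333 to 372 lower genes, and 214 to 278 and 111 to 130 agreeing ones, where 1 difference between the means of the remaining arrays takes the place of the pairs. The hypoxia median was 0.63 with array medians subtracted, 0.73 with quantile normalization, 0.77 with the median of probe sets, 0.57 without _x_at and _s_at probe sets and 0.62 to 0.74 with an array left out. For the G2/M genes these were -0.35, -0.32, -0.27, -0.35 and -0.34 to -0.28. The inflammatory ligands were at 0.97 with the median of probe sets and the ATF4 list at 0.20 without _x_at and _s_at probe sets. For the ATF4 list and the counts the cause was not tested. All 7 list medians kept their sign under the alternatives run. Without chromosome X 350 genes were higher and 241 lower. Without pairing, counting genes whose first and second arrays were all more than 1 apart gave 372 higher and 195 lower genes. Centred values give no signal over background, so differences of dim genes cannot be told from those of bright ones.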
